A study of Mus musculus with 5 samples.

Results

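Collagens other than type IV are the triple-helical proteins of fibrils, fibril surfaces, beaded filaments and cell-matrix junctions. They were taken here as every gene whose symbol has the form Col, a type number, a and a chain number, leaving out Col4a1 to Col4a6. The rule found 38 of 32793 genes, each present in both the count and the TPM table (TPM is the transcript abundance scaled for gene length and for the library's total). RNA was measured in bulk from whole mouse kidneys at embryonic day 15.5. The 2 NICD_mut libraries carried the Six2TGC/+ Cre line and RosaN1ICD∆PEST, an activated Notch1 transgene that Cre switches on, here in nephron progenitors. The 3 NICD_wt libraries came from littermates that carried RosaN1ICD∆PEST without Cre. Both groups thus shared the Notch1 allele, and the Cre line was in NICD_mut alone, so what the driver does by itself cannot be told apart from what the activated receptor does. The transgene was switched on in progenitors and carried on by their descendants, while RNA came from every cell of the kidney. Nothing in the labels ties each library to its own embryo, so a p-value here reflects only the scatter among these libraries, some of which may be technical.

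Each collagen chain has a long stretch in which glycine recurs at a fixed step, and 3 chains wind into a triple helix. Fibrillar collagens line up into the cross-banded fibrils of connective tissue, with types I and III the most abundant, type V starting and limiting fibril growth, and types II and XI typical of cartilage. Fibril-associated collagens have helices interrupted by flexible joints and sit on fibril surfaces. The others form beaded filaments (type VI), hexagonal networks (types VIII and X), anchoring fibrils (type VII), basement membrane proteoglycans that release endostatin-type fragments (types XV and XVIII) or span the plasma membrane (types XIII, XVII, XXIII and XXV). In the kidney, stromal and perivascular cells are the usual source of the interstitial types.

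Libraries held 17361823 to 21356447 counts, and each of 10 kidney markers, among them Pax2, Wt1 and Lrp2, was detected in every library. NICD_mut 1 stood apart: 10 skeletal muscle markers summed to 3572 CPM (counts scaled to the library total) there, against 15.8 CPM in NICD_mut 2, 149.5 in NICD_wt 1, and 5.99 and 5.41 in NICD_wt 2 and 3. None of the 10 passed the edgeR test, 0 did at an unadjusted p of 0.05, and 4 passed the DESeq2 Wald test. Smooth muscle and mural markers summed to 1542 CPM in NICD_mut 1, 529 in NICD_mut 2 and 524 to 683 in NICD_wt. Among all genes tested 23.0% rose and 24.8% fell, and of these 8 markers 2 rose and 0 fell. Without NICD_mut 1, 2 rose and 2 fell, and without NICD_mut 2, 5 rose. For 8 tendon and dense connective tissue markers the sums were 66.7, 14.9 and 30.9 to 38.6 CPM, and 1, the tendon regulator Scx, fell. Without NICD_mut 2, 5 of these 8 rose. The mature tendon gene Tnmd had 123 and 3 counts in NICD_mut, 12 in NICD_wt 1 and 0 in NICD_wt 2 and 3. Members below are therefore given in each NICD_mut library, and values without NICD_mut 1 or NICD_mut 2 are printed where they changed a call or sign. The shares of all genes in fits with a library left out are given below with the collagen counts.

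The promoters of 3 members are shown because each had the smallest adjusted p of its class among changed members with an entry in the RefSeq promoter table, which held 30 of the 38 members. Each is the 250 bases before the RefSeq start, plus strand, GRCm38.p6, 5′ to 3′. Capitals mark the motifs found, each searched on both strands: the TATA box as TATAAA, the CCAAT box by those 5 letters, the GC box as GGGCGG, and the core bound by Rbpj, the DNA-binding partner of Notch, as TGGGAA.
Col11a2, fibrillar, chr17:34038888-34039137: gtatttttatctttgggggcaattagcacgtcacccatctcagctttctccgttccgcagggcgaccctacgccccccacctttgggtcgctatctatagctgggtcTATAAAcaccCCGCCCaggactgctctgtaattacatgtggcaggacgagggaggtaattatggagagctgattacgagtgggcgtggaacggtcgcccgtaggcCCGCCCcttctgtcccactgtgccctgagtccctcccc
Col16a1, fibril-associated, chr4:130047590-130047839: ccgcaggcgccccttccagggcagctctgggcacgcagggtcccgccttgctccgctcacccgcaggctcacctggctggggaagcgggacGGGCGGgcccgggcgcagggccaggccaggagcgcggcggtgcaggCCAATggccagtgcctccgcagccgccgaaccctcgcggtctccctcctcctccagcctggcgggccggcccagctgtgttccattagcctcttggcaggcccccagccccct
Col25a1, transmembrane, chr3:130180595-130180844: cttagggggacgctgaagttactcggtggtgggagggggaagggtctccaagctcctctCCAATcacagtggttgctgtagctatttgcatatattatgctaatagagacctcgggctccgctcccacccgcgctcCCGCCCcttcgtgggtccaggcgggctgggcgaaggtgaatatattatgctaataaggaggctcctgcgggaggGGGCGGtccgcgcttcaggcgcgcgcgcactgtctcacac
Col11a2 was lower and the other two were higher in NICD_mut. The Col11a2 window held a TATA box with its first base 143 bases before the start and GC boxes at 133 and 38. Both other windows held a CCAAT box, at 113 bases in Col16a1 and 191 in Col25a1, and at least 1 GC box. In these 3 windows no motif overlapped another and TGGGAA was not among the letters. The Col25a1 window is that of a RefSeq start inside the gene's GENCODE interval, and the Col11a2 start lies before the GENCODE one. Over all 33 member windows a GC box was present in 57.6%, against 32.7% of 32851 windows of all genes. TGGGAA was in 30.3% against 21.6%, CCAAT in 30.3% against 33.8% and TATAAA in 15.2% against 12.4%. These shares describe letters in a window and were not tested.

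Many collagens were higher in NICD_mut kidneys, and 4 were lower, 2 of them, the cartilage collagens Col2a1 and Col11a2, by more than 1 log2. Of the 36 members that passed the filter on low counts, 17 rose, 4 fell and 15 did not pass (quasi-likelihood test in edgeR, with p-values adjusted by Benjamini-Hochberg over 15885 genes and a threshold of 0.05). Among all genes tested 23.0% rose and 24.8% fell, 47.7% in all. The median member difference was 1.12 log2, against 0.01 for all genes tested. Without NICD_mut 1, 18 rose and 7 fell at a median of 0.71, where 21.4% of all genes rose and 23.1% fell. Without NICD_mut 1 and NICD_wt 1, the libraries with most muscle transcripts, 20 rose and 7 fell, against 20.8% and 22.3% of all genes. Without NICD_mut 2, 29 of 37 rose and 4 fell at a median of 1.54, against 23.3% and 25.5%. Without NICD_wt 2, 10 of 36 rose and 3 fell, against 19.5% and 21.7%. Without NICD_wt 1, 12 rose and 3 fell, against 18.6% and 20.3%, and without NICD_wt 3 the same numbers did, against 17.7% and 19.6%. The fits without 1 NICD_mut library have no spread within that group and assume it varies like NICD_wt. From whole kidneys, more cells of a type and more RNA per cell cannot be told apart.

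By class, 5 of 11 fibrillar collagens rose and 2 fell, 3 of 8 tested fibril-associated collagens rose and 0 fell, and 9 of 17 tested other collagens rose and 2 fell. At an unadjusted p of 0.05, 1 fibril-associated collagen was lower, and the DESeq2 Wald test and limma-voom each called 1 lower. The class medians lay close together, at 1.26, 1.19 and 1.07 log2. Differences between the classes were not tested. With NICD_mut 1 left out the medians were 0.67, 0.28 and 0.84 log2, and with NICD_mut 2 left out 1.37, 1.58 and 1.32. The fibril-associated class had the lowest median of the 3 in the first of these fits and the highest in the second. Levels of both NICD_mut libraries lay above all NICD_wt libraries for 24 of 36 members and below them for 6, against 32.9% and 34.2% of all genes tested (67.2% on either side). Taken singly, NICD_mut 1 was above every NICD_wt library for 29 members and below for 6, against 42.1% and 42.2% of all genes. NICD_mut 2 was above for 24 and below for 9, against 40.3% and 41.0%. By class, both lay above for 8 of 11 fibrillar, 3 of 8 fibril-associated and 13 of 17 other collagens.

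**Figure D1:**
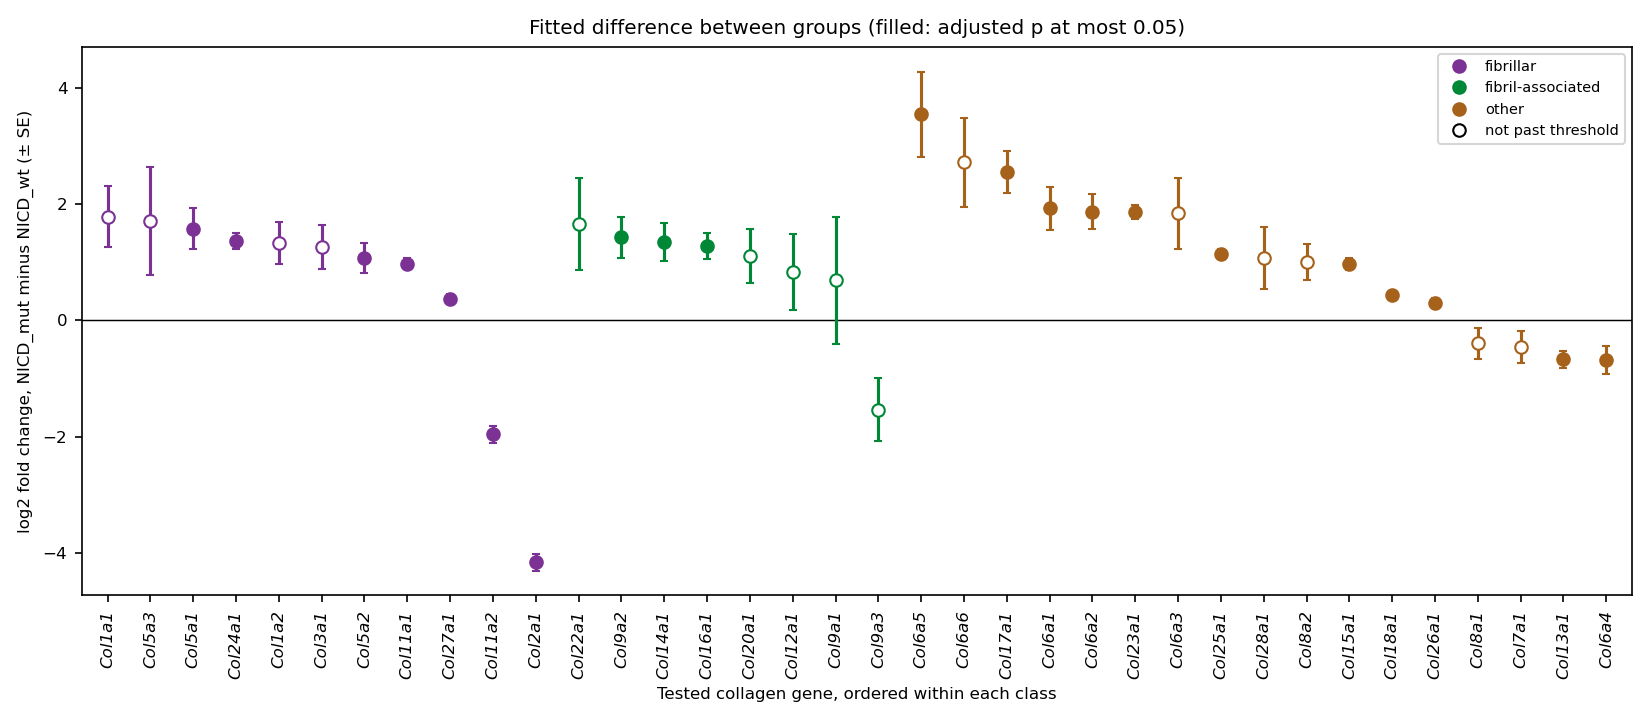
Fitted log2 fold change (NICD_mut minus NICD_wt, ± SE) of the 36 tested collagens, ordered within fibrillar, fibril-associated and other classes; filled points passed the adjusted threshold. Most points lie above 0, from 0.30 for Col26a1 to 3.54 for Col6a5 among those that rose, while Col2a1 lies at -4.16 and Col11a2 at -1.96.

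In every library the fibrillar types I and III dominated. The mRNAs of Col1a1, Col1a2 and Col3a1 together made up 64.9% and 57.2% of the collagen TPM in NICD_mut 1 and 2, and 59.6%, 57.3% and 54.9% in NICD_wt 1 to 3. Summed over the 38 members, TPM was 6694 in NICD_mut 1 and 3430 in NICD_mut 2, against 2029, 1928 and 1646 in NICD_wt. The first is 3.58 times and the second 1.84 times the NICD_wt mean. In NICD_wt the order by mean TPM began with Col3a1 at 482 ± 50.4, then Col1a2 at 338 ± 49.4, Col1a1 at 252 ± 55.4 and Col18a1 at 195 ± 15.3 (SD, n = 3). Col26a1 (83.0 ± 7.11), Col6a2 (76.1 ± 7.62) and Col6a1 (65.5 ± 8.45) followed. Col1a2, Col1a1 and Col18a1, and again Col26a1, Col6a2 and Col6a1, differed from their neighbours by less than the sum of both SDs, while the gaps after Col3a1 and after Col18a1 were wider. Within every single NICD_wt library, however, Col1a2 exceeded Col1a1 and Col6a2 exceeded Col6a1. Col1a1 and Col18a1, and Col26a1 and Col6a2, changed order between NICD_wt libraries. In NICD_mut Col3a1 stayed first in both libraries, and Col1a1 ranked above Col1a2 in NICD_mut 1 but below it in NICD_mut 2.

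**Figure D2:**
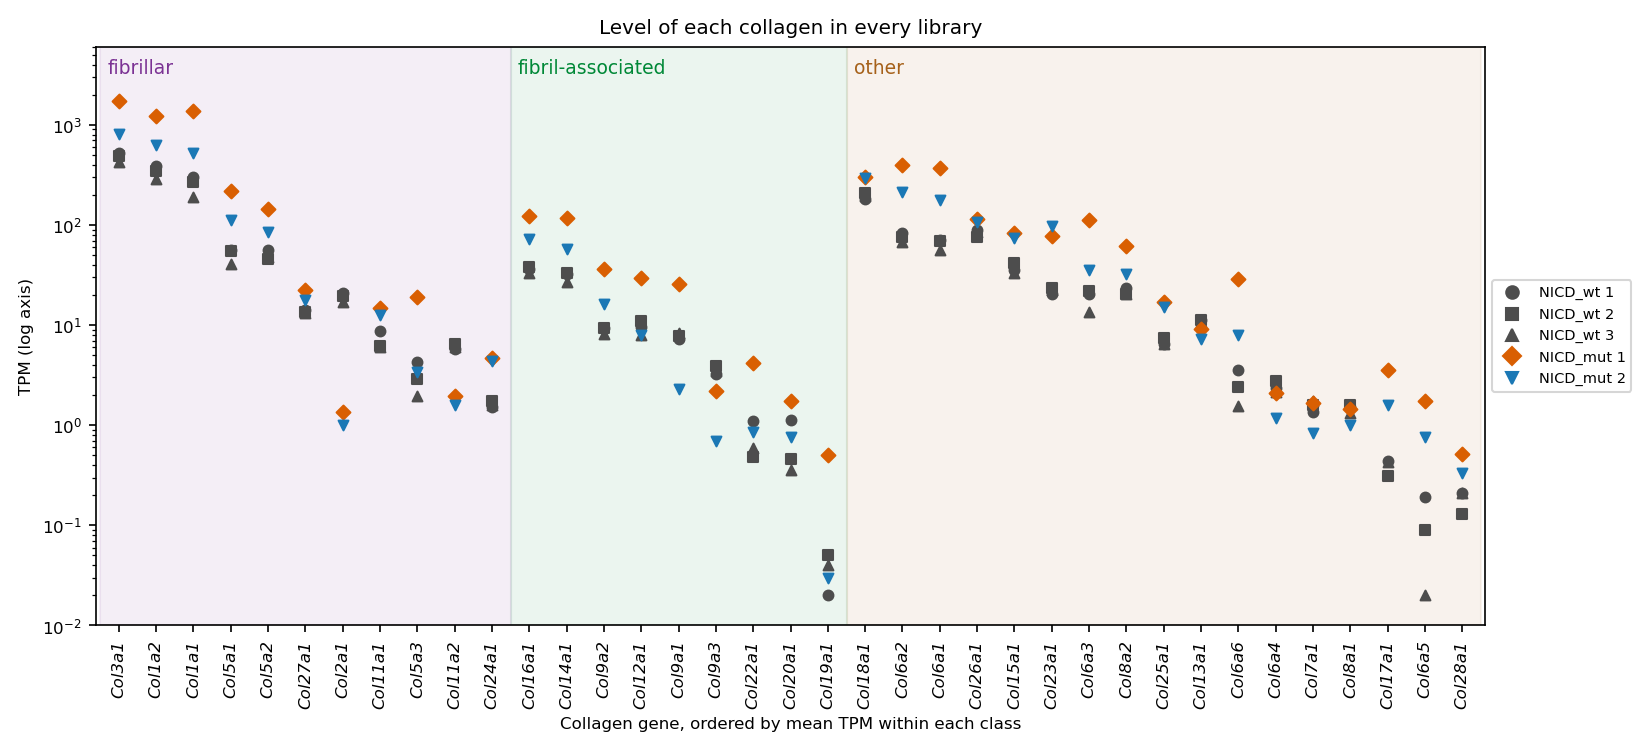
TPM (log axis) of 37 collagens in each library, by class and ordered by mean TPM; Col10a1, listed at 0 in 4 libraries, is left out. Col3a1 is highest in each library, at 427 to 525 TPM in NICD_wt, and the NICD_mut points of Col2a1 lie far below those of NICD_wt.

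Col3a1 (chromosome 1, 45311538 to 45349706, plus strand, mm10), the chain of type III fibrils found in loose connective tissue, stood at 1725 and 811 TPM in NICD_mut 1 and 2, and at 525, 494 and 427 in NICD_wt 1 to 3. Both NICD_mut libraries were above all NICD_wt libraries, and NICD_mut 1 was the highest by far. The fitted difference of 1.26 log2 (SE 0.38) did not pass (edgeR adjusted p = 0.0765). It was 0.66 without NICD_mut 1 and 1.67 without NICD_mut 2, and passed in both of these fits (edgeR adjusted p = 0.0143 and 0.00133).

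The chains of type I, the main fibril of tendon, skin and bone, had the same order of libraries. Col1a2 (chromosome 6, 4504814 to 4541544, plus strand), the partner chain of type I, had 1239 and 626 TPM against 385, 344 and 287. Col1a1 (chromosome 11, 94936224 to 94953042, plus strand), of which type I fibrils hold more copies, had 1383 and 524 TPM against 298, 267 and 191. For both chains the NICD_mut libraries lay above NICD_wt and were themselves far apart, with NICD_mut 1 the higher. Neither difference passed, at 1.33 (SE 0.36) for Col1a2 and 1.78 (SE 0.53) for Col1a1 (edgeR adjusted p = 0.0597 and 0.0763). The DESeq2 Wald test called both higher, and Col3a1 too, as did edgeR without NICD_mut 2 (1.70 and 2.29). Without NICD_mut 1 the 2 differences were 0.80 and 0.97 and did not pass (edgeR adjusted p = 0.0887 and 0.173). The Col1a1 to Col1a2 ratio in TPM was 1.12 and 0.837 in NICD_mut and 0.775, 0.776 and 0.665 in NICD_wt, so both NICD_mut libraries had relatively more Col1a1.

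Type V chains, which are built into type I fibrils and set their width, rose for Col5a1 and Col5a2. Col5a1 had 217 and 113 TPM in NICD_mut against 55.8, 54.5 and 41.2 in NICD_wt, a change of 1.58 log2 (SE 0.35). Col5a2 had 146 and 84.8 TPM against 56.3, 46.3 and 47.7, a change of 1.07 (SE 0.26). These passed narrowly (edgeR adjusted p = 0.0358 and 0.0360) and neither passed when any 1 of the NICD_wt libraries was left out. Without NICD_mut 1, Col5a2 passed at 0.67 and Col5a1, at 1.08, did not (edgeR adjusted p = 0.0616). Col5a3, another type V chain, was high only in NICD_mut 1, with 19.3 TPM against 3.37 in NICD_mut 2 and 4.29, 2.92 and 1.95 in NICD_wt. Its difference was 1.70 (SE 0.93), 0.01 without NICD_mut 1 and 2.44 without NICD_mut 2, where alone of these it passed. Col5a2 lies 24615 bases from Col3a1 on the opposite strand, and both NICD_mut libraries exceeded NICD_wt for this pair.

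Of the chains typical of cartilage, Col2a1 and Col11a2 fell and Col11a1 rose. Col2a1 (chromosome 15, 97975602 to 98004695, minus strand), the main fibril chain of cartilage, had 1.35 and 1.01 TPM in NICD_mut against 20.7, 19.4 and 17.2 in NICD_wt. It fell by 4.16 on the log2 scale (SE 0.14; edgeR adjusted p = 2.95e-07), the smallest adjusted p of any member. The 2 NICD_mut libraries, with 79 and 61 counts against 941 to 1311, were close to each other. Col11a2, a chain of the type XI fibrils that are built with type II, had 1.95 and 1.59 TPM against 5.83, 6.50 and 6.01, and fell by 1.96 (SE 0.15). Its partner chain Col11a1 rose by 0.97 (SE 0.10), with 14.9 and 12.5 TPM against 8.78, 6.15 and 6.04. All 3 calls held with each library left out in turn.

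Among markers of cartilage and bone, of which 6 were tested, 4 rose and 1, the cartilage matrix gene Matn1, fell beside Col2a1. Of all genes tested, 23.0% rose and 24.8% fell. Without NICD_wt 2, or without NICD_wt 3, 1 of 5 rose and 0 fell, and without NICD_mut 1, 3 of 6 rose and 0 fell. The Matn1 counts were 0 and 1 in NICD_mut, and 6, 17 and 12 in NICD_wt. The cartilage proteoglycan gene Acan had 72 and 87 counts against 43, 23 and 20. Summed over the list, levels were 46.1 and 63.9 CPM in NICD_mut and 29.3 to 30.8 CPM in NICD_wt. Most of this was Hapln1, with 32.7 and 51.0 CPM in NICD_mut and 24.2 to 25.6 CPM in NICD_wt. The bone genes Ibsp and Bglap had 0 counts in each NICD_wt library. The part of the listed markers in the Col2a1 result was not tested.

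The last pair of fibrillar genes, for which fewer functions are known, rose in both NICD_mut libraries. Col24a1 rose by 1.36 log2 (SE 0.14), with 4.70 and 4.41 TPM in NICD_mut against 1.52, 1.74 and 1.61 in NICD_wt, and the NICD_mut libraries nearly coincided. Col27a1, a fibril chain known from cartilage, rose by 0.37 (SE 0.09), with 22.4 and 17.8 TPM against 14.0, 13.5 and 13.3. Both passed with each library left out in turn.

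Fibril-associated collagens split by library. Col16a1, a collagen of fibril surfaces, had 122 and 71.9 TPM in NICD_mut against 36.3, 38.4 and 33.5 in NICD_wt. Col14a1, which binds fibrils of dense connective tissue, had 117 and 57.6 TPM against 32.8, 32.9 and 27.2. Col9a2, a chain of type IX, which coats type II fibrils, had 36.1 and 16.2 TPM against 9.28, 9.29 and 8.07. For these 3 both NICD_mut libraries lay above every NICD_wt library, with NICD_mut 1 the higher. They rose by 1.28 (SE 0.23), 1.35 (SE 0.33) and 1.43 (SE 0.35) log2. The edgeR adjusted p was 0.0120, 0.0432 and 0.0300 in that order, and Col14a1 and Col9a2 did not pass when any NICD_wt library was left out. Without NICD_mut 1 all 3 passed, at 0.90, 0.79 and 0.77.

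The 2 NICD_mut libraries lay on opposite sides of NICD_wt for Col9a1 and Col12a1, a pattern seen in 5.86% of all genes tested. Col9a1, another type IX chain (chromosome 1, 24177610 to 24252684, plus strand), had 25.6 TPM in NICD_mut 1 and 2.28 in NICD_mut 2, against 7.35, 7.76 and 8.41 in NICD_wt. The fitted difference was 0.68 log2 (SE 1.10). It was -1.87 without NICD_mut 1 and 1.55 without NICD_mut 2, and passed each time (edgeR adjusted p = 6.74e-06 and 6.10e-07). Col12a1, abundant in tendon and muscle connective tissue, had 29.7 and 7.94 TPM against 9.68, 10.9 and 8.06. Its difference was 0.83 (SE 0.66). It turned to -0.36 without NICD_mut 1, where it did not pass, and was 1.46 without NICD_mut 2, where it passed. The sums of the muscle and tendon markers given above were also highest in NICD_mut 1. In NICD_mut 2 the tendon sum lay below NICD_wt, and the skeletal and smooth muscle sums lay within its range. Single markers differed. In the tendon sum, Scx gave 4.50 and 4.39 CPM in NICD_mut 1 and 2 and 16.1 to 19.7 in NICD_wt. Of the 8 tendon markers, 4 lay below every NICD_wt library in NICD_mut 2 and 4 within their range. Of the 8 smooth muscle markers, 5 lay below and 2 above. The part of these markers in the Col9a1 and Col12a1 values was not tested.

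Col9a3 encodes the remaining type IX chain. It had 2.19 and 0.700 TPM in NICD_mut against 3.26, 3.88 and 3.47 in NICD_wt, so both NICD_mut libraries were below. The difference of -1.54 (SE 0.55) did not pass (edgeR adjusted p = 0.0575), but it did at -2.90 without NICD_mut 1 and at -0.86 without NICD_mut 2. The Col9a2 to Col9a3 ratio in TPM was 16.5 and 23.2 in NICD_mut and 2.33 to 2.85 in NICD_wt. Reads in the part of Col9a3 that overlaps Tcfl5 on the opposite strand may not be told apart, since the strand setting is not given in the sources used here; the same holds for Col18a1 and Slc19a1.

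The 3 remaining fibril-associated genes were scarce and highest in NICD_mut 1. Col22a1, known from muscle-tendon junctions, had 306 and 62 counts in NICD_mut against 84, 39 and 39. Col20a1 had 85 and 37 counts against 39, 25 and 16. Neither passed. Without NICD_mut 1 their differences were 0.14 and 0.43, and without NICD_mut 2 they were 2.36 and 1.54 and passed. Col19a1, which lies 9206 bases from Col9a1, had 45 counts in NICD_mut 1, 4 in NICD_mut 2, and 2, 6 and 4 in NICD_wt, and was too low to be tested with all 5 libraries. Without NICD_mut 2 it was tested and passed as higher.

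**Figure D3:**
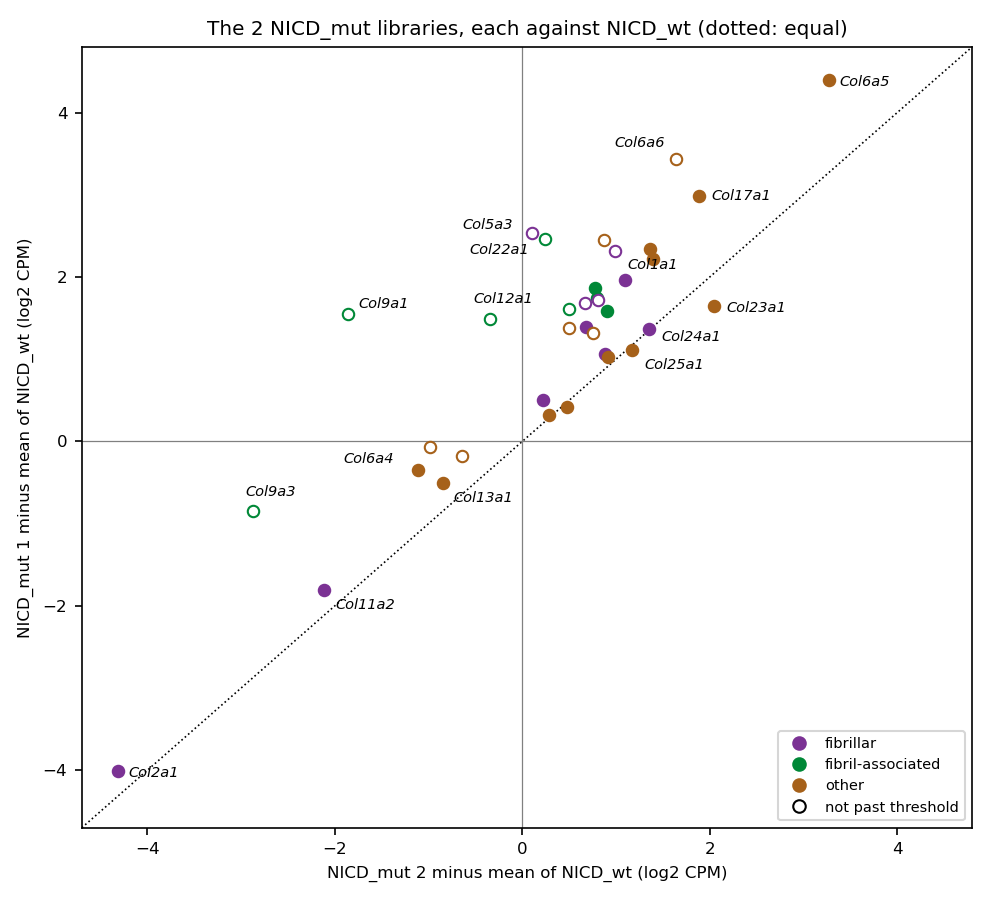
Difference of each NICD_mut library from the NICD_wt mean (log2 CPM) for the 36 tested collagens, NICD_mut 2 on the horizontal and NICD_mut 1 on the vertical axis; filled points passed the adjusted threshold. Of the 36 points 33 lie above the dotted line of equality; Col9a1 is at 1.55 for NICD_mut 1 and -1.86 for NICD_mut 2.

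Across all members, NICD_mut 1 exceeded NICD_mut 2 for 33 of 36, where 45.2% of all genes tested did. The plot of one library against the other shows this as a cloud above the line of equality. The median gap was 0.87 log2 for collagens and -0.03 for all genes tested. By class it was 0.71 for fibrillar, 1.47 for fibril-associated and 0.76 for other collagens. A gap over 1 log2 was seen for 13 members (36.1%), against 7.81% of all genes. In contrast, 6 members, 16.7% against 63.9% of all genes, had NICD_mut libraries within 0.25 log2 of each other: Col11a1, Col24a1, Col15a1, Col18a1, Col25a1 and Col26a1. These all rose. The 3 tested members higher in NICD_mut 2 were Col23a1, Col25a1 and Col18a1.

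Type VI collagen, the beaded filament around interstitial cells, had 3 chains that rose, among them Col6a5 with the largest increase of any called member. Col6a1 (chromosome 10, 76708792 to 76726168, minus strand) had 368 and 179 TPM in NICD_mut against 70.9, 69.9 and 55.8 in NICD_wt. Col6a2, its neighbour 85162 bases away on the same strand, had 395 and 213 TPM against 83.6, 76.2 and 68.4. Both NICD_mut libraries were more than double any NICD_wt library. Col6a1 rose by 1.93 log2 (SE 0.37) and Col6a2 by 1.87 (SE 0.30; edgeR adjusted p = 0.0253 and 0.0142). Without NICD_mut 1 they passed at 1.35 and 1.39. Col6a1 did not pass without any 1 NICD_wt library, nor Col6a2 without NICD_wt 2. The ratio of Col6a1 to Col6a2 in TPM was 0.933 and 0.838 in NICD_mut and 0.816 to 0.918 in NICD_wt, with overlap between the groups.

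Col6a3, the large remaining chain of the same filament, had 113 and 35.5 TPM against 20.4, 21.8 and 13.6, and its difference of 1.84 (SE 0.61) did not pass. Without NICD_mut 1 it was 0.84, and without NICD_mut 2 it was 2.41 and passed. The chains Col6a4, Col6a5 and Col6a6, which can take the place of Col6a3, lie in a row on the minus strand of chromosome 9 and did not move together. For Col6a5 the counts were 197 and 85 in NICD_mut, and 21, 11 and 2 in NICD_wt. It rose by 3.54 (SE 0.73; edgeR adjusted p = 0.0094), with both NICD_mut libraries far above NICD_wt. The call was lost without NICD_wt 2, and the difference was at 2.86 without NICD_mut 1. Col6a6, 27918 bases from it, had 28.8 and 7.91 TPM against 3.57, 2.41 and 1.55, and its difference of 2.72 (SE 0.76) did not pass (edgeR adjusted p = 0.0663). It was 1.56 without NICD_mut 1, and 3.33 without NICD_mut 2, where it passed. Col6a4, 28811 bases away on the other side, fell by 0.68 (SE 0.24; edgeR adjusted p = 0.0433), with 2.11 and 1.18 TPM against 2.35, 2.75 and 2.14. That call was lost without any 1 NICD_wt library and without NICD_mut 2, where the difference was -0.36.

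Among transmembrane collagens 3 rose and 1 fell. Col23a1 had 77.8 and 97.4 TPM in NICD_mut against 20.6, 23.4 and 22.6 in NICD_wt, and rose by 1.86 log2 (SE 0.12; edgeR adjusted p = 4.18e-05). It was the only tested member for which NICD_mut 2 exceeded NICD_mut 1 by more than 0.25 log2. Col25a1, which has a role in motor nerve growth and amyloid binding, rose by 1.14 (SE 0.08), with 17.1 and 15.03 TPM against 6.53, 7.49 and 6.47. Col17a1, the hemidesmosome collagen that anchors epithelia to basement membrane, had 3.53 and 1.58 TPM against 0.440, 0.310 and 0.430. It rose by 2.54 (SE 0.36), and by 1.89 without NICD_mut 1. Col13a1, found at cell-matrix and neuromuscular junctions, fell by 0.67 (SE 0.15), with 9.13 and 7.35 TPM against 11.3, 11.2 and 10.7. All 4 calls held with each library left out in turn.

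Both basement membrane proteoglycan collagens rose, with NICD_mut libraries close together. Col15a1, typical of vascular and muscle basement membranes, had 83.3 and 73.9 TPM against 35.5, 42.2 and 33.1, a change of 0.96 log2 (SE 0.10). Col18a1, the precursor of endostatin, had 299 and 297 TPM against 181, 211 and 194, a change of 0.44 (SE 0.07). Both passed with each library left out (edgeR adjusted p = 0.000227 and 0.000829 with all 5). Beside them, 8 endothelial markers summed to 1079 and 1244 CPM in NICD_mut against 677 to 746 in NICD_wt. All 8 rose, where 23.0% of all genes tested did, and each had NICD_mut 2 above NICD_mut 1 in scaled level. The part of endothelial content in these results was not tested.

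Among the remaining types only Col26a1 passed. It rose by 0.30 (SE 0.08), with 115 and 107 TPM against 89.3, 75.3 and 84.5. The network collagen Col8a2 had 62.2 and 32.4 TPM against 23.5, 20.6 and 20.5 and did not pass at 1.003 (SE 0.30), while its partner Col8a1 had 87 and 60 counts against 95, 107 and 72 and did not pass either. Col8a2 passed at 0.50 without NICD_mut 1 and at 1.36 without NICD_mut 2, and by the DESeq2 Wald test. Their ratio, Col8a1 to Col8a2, was 0.0233 and 0.0308 in NICD_mut and 0.0643 to 0.0769 in NICD_wt. Col7a1, of anchoring fibrils, had 1.65 and 0.830 TPM against 1.37, 1.59 and 1.73, and Col28a1, known from peripheral nerve, had 25 and 16 counts against 11, 7 and 9; neither passed. The Col7a1 difference of -0.46 (SE 0.27) was -0.997 without NICD_mut 1, where it passed as lower, and -0.09 without NICD_mut 2. Col10a1, the collagen of growth-plate cartilage, had 1 count in NICD_mut 2 and 0 in each other library, so it was not tested and allows no fold.

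Calls differed in how well they withstood leaving out a library. Of the 21 members called, 13 stayed past the threshold with each library left out in turn, and the same 13 did under all 16 alternatives. They were the fibrillar Col2a1, Col11a1, Col11a2, Col24a1 and Col27a1, the fibril-associated Col16a1, and the others Col13a1, Col15a1, Col17a1, Col18a1, Col23a1, Col25a1 and Col26a1. The 8 others were Col5a1, Col5a2, Col6a1, Col6a2, Col6a4, Col6a5, Col9a2 and Col14a1. All 8 lost their call without NICD_wt 2, and all of them but Col6a2 and Col6a5 also did without NICD_wt 1 or NICD_wt 3. Without NICD_mut 1 only Col5a1 did, and without NICD_mut 2 only Col6a4.

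**Figure D4:**
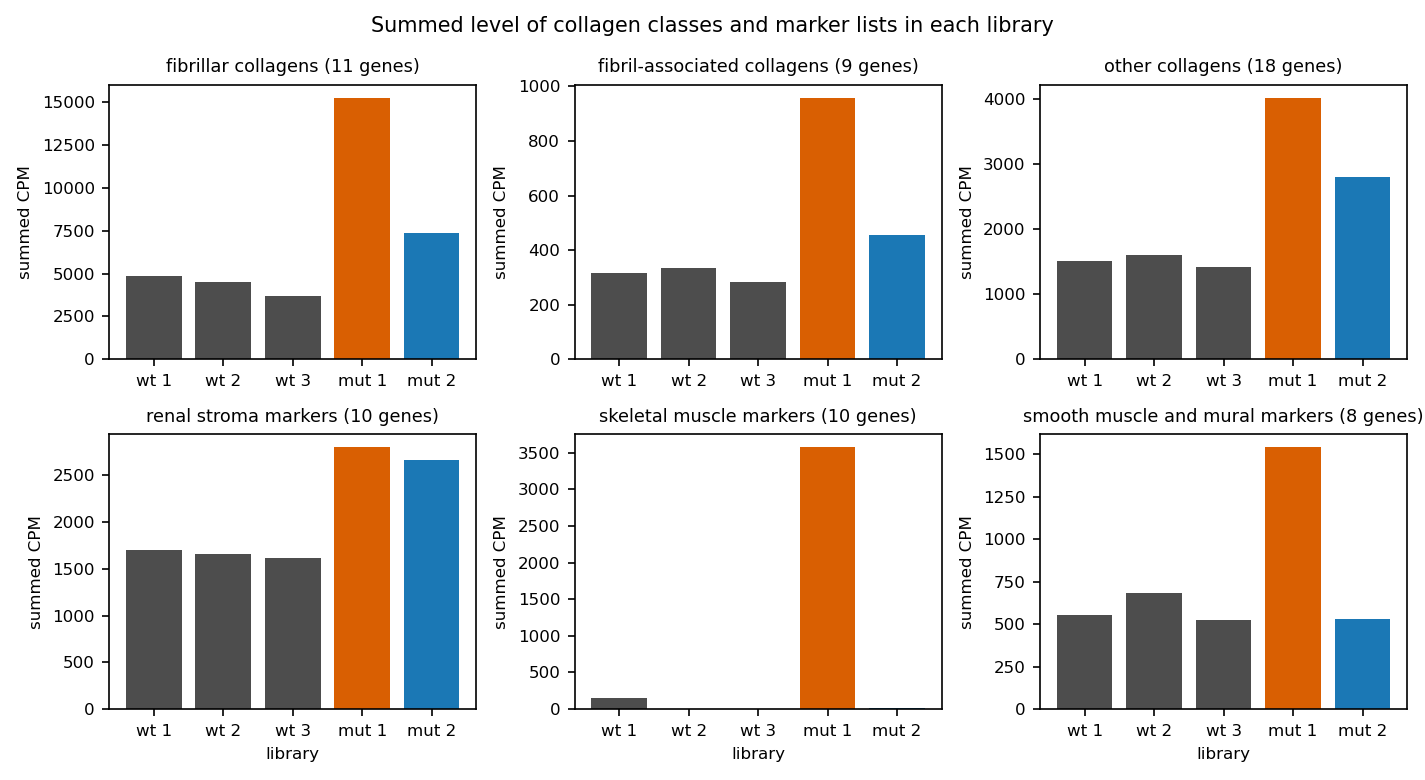
Summed CPM in each library for the 3 collagen classes (top row) and for renal stroma, skeletal muscle, and smooth muscle and mural markers (bottom row). Fibrillar collagens sum to 15270 CPM in NICD_mut 1 and 7393 in NICD_mut 2, against 3678 to 4870 in NICD_wt. The summed stroma markers are near equal in both NICD_mut libraries, though single ones differ, and muscle markers are high in NICD_mut 1.

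Other cell markers moved in part with the collagens. Renal stroma markers summed to 2796 and 2665 CPM in NICD_mut 1 and 2 and 1613 to 1696 CPM in NICD_wt. Of these 10 markers 5 rose and 1 fell, where 23.0% and 24.8% of all genes tested did. The stroma sums were thus 1.69 and 1.61 times the NICD_wt mean, where fibrillar collagens were 3.52 and 1.70 times by CPM. Vim alone gave 1104 and 1114 CPM of the NICD_mut sums, against 515, 536 and 490 CPM of the NICD_wt sums. Both NICD_mut libraries lay above every NICD_wt library for 6 of the 10 stroma markers and below for 2. NICD_mut 1 exceeded NICD_mut 2 for 4 of the 10 stroma markers, among them Pdgfra (423 and 296 CPM) and Tbx18 (61.5 and 23.8). Pdgfrb, at 316 and 443 CPM, was among those that went the other way. Stroma markers that rose numbered 3 without NICD_wt 3. Peripheral glia markers, of which 4 of 6 rose, summed to 78.7 and 48.8 CPM against 29.9 to 34.6. Without NICD_mut 1, NICD_wt 2 or NICD_wt 3, 2 of the 6 rose. In NICD_mut 2 the smooth muscle sum lay within the NICD_wt range and the tendon sum below it. Of the 8 smooth muscle and mural markers, however, 5 lay below every NICD_wt library in NICD_mut 2, 2 above and 1 within. The skeletal muscle sum of NICD_mut 2, 15.8 CPM, lay below NICD_wt 1 (149.5) and above NICD_wt 2 and 3 (5.99 and 5.41). Collagen sums in NICD_mut 2 were 1.70 (fibrillar), 1.45 (fibril-associated) and 1.85 (other) times the NICD_wt mean by CPM. The part of any of these cell types in the collagen values was not tested.

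Genes that make, trim, bind and degrade collagen were also mostly higher or not past the threshold. Of 47 tested in 5 lists, 28 rose and 0 fell by the edgeR test, where 23.0% and 24.8% of all genes did, with 0 lower at an unadjusted p of 0.05 and 0 lower by the DESeq2 Wald test. Without NICD_mut 1, 26 rose, against 21.4% of all genes. Fits without 1 NICD_wt library called 19 to 21 higher, against 17.7% to 19.5% of all genes, and the fit without NICD_mut 2 called 38 of 50, against 23.3%.

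Enzymes and chaperones of collagen synthesis changed least, with 8 of 19 higher and a median of 0.24 log2. P3h1 and P3h2, which hydroxylate prolines, rose by 0.74 (SE 0.06) and 0.76 (SE 0.09), and the lysyl hydroxylase Plod1 by 0.56 (SE 0.07). The collagen chaperone Serpinh1 was at -0.06 (SE 0.06) and did not pass. Their summed level was 1.12 and 1.03 times the NICD_wt mean in NICD_mut 1 and 2 by CPM. Propeptide-trimming genes rose in 5 of 7 cases. Adamts14, an aminoprocollagen protease, had 19.5 and 17.6 TPM in NICD_mut against 2.44, 2.12 and 1.55 in NICD_wt, and rose by 3.06 (SE 0.17). The carboxyprocollagen proteases Bmp1 and Tll1 rose by 0.85 (SE 0.06) and 1.48 (SE 0.32).

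Small proteoglycans that coat fibrils rose in 6 of 8 cases, at a median of 1.22 log2, with NICD_mut 1 above NICD_mut 2 for each of the 8. Bgn rose by 0.80 (SE 0.11), Podn by 1.24 (SE 0.31) and Ogn by 1.19 (SE 0.25). Without NICD_wt 2 or NICD_wt 3, 2 of 8 passed, and without NICD_wt 1, 3. Collagen receptors rose in 6 of 8 cases. The endocytic receptor Mrc2 rose by 0.89 (SE 0.07), the integrin chain Itga1 by 0.70 (SE 0.09) and the receptor kinase Ddr1 by 0.57 (SE 0.07). With NICD_wt 1, 2 or 3 left out, 4 of 8 receptors passed. Of 5 tested collagen-degrading enzymes 3 rose: the membrane collagenase Mmp14 by 0.97 (SE 0.05), the gelatinase Mmp9 by 3.65 (SE 0.28) and Fap by 1.33 (SE 0.28). Mmp2, another gelatinase, was at 0.11 (SE 0.14) and did not pass.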

How the data were processed

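RSEM, Bowtie2 and the build mm10 are named, without roles, per the submitters' processing notes; the sources used here do not give their versions, the annotation or the treatment of strand. The authors deposited estimated counts per gene symbol, as whole numbers, and TPM for the same 5 libraries. CPM here is counts per 1000000 of TMM-scaled library size. Counts were scaled with TMM and filtered by group (minimum count 10, minimum total 15). NICD_mut was compared with NICD_wt, with no covariate, by robust quasi-likelihood F-tests (edgeR 4.0.16, R 4.3.3) and Benjamini-Hochberg adjusted p-values over all genes tested. Single-library differences use log2 CPM with a prior count of 0.5. TPM values are shown for levels and chain ratios; fold changes come from counts. Alternatives used DESeq2 1.42.0, limma 3.58.1, other scalings and filters, and left-out libraries. The scripts were tested on simulated data. Members and lists were chosen with earlier results of these data known. Full values were to be given for called members, the 2 most abundant per class, members with NICD_mut libraries on opposite sides of NICD_wt, and up to 3 pathway genes per list by adjusted p. Other members, Serpinh1 and Mmp2 were given values after these had been seen. So were the marker genes Matn1, Acan, Hapln1, Ibsp, Bglap, Sp7, Scx, Tnmd, Vim, Pdgfra, Tbx18 and Pdgfrb. Coordinates are from GENCODE (mm10), 1-based; promoters are from RefSeq (GRCm38.p6). Figures used matplotlib 3.10.9.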

Additional observations from a re-analysis of the deposited data

How the results depend on the processing

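Scaling by DESeq2 size factors or library size alone left every collagen count as it was. Of all genes tested, 23.0% rose and 24.8% fell in the main test, and 16.8% and 19.5% with no filter. By the DESeq2 Wald test 23.5% rose and 24.2% fell, and by limma-voom 22.8% and 24.7%. With at least 50 counts in 2 libraries 27.0% and 27.1% did. Fibrillar collagens higher numbered 5 in the main test, 3 with no filter, and 8 by the DESeq2 Wald test or by limma on log2(TPM + 1) with no filter. Fibril-associated collagens higher numbered 3, and 1 by limma-voom; lower numbered 0, and 1 by the DESeq2 Wald test, limma-voom, and limma on log2(TPM + 1) or log2(TPM + 0.1). Other collagens lower numbered 2, and 1 with at least 50 counts in 2 libraries, by limma on log2(TPM + 1) with or without a filter, by limma on log2(TPM + 0.1), and with the replicate block. Without NICD_mut 1 and NICD_wt 1, 7 collagens were lower, 2 of them fibril-associated, and 2 of 36 collagens turned sign, Col9a1 to -1.92 and Col12a1 to -0.36. Without NICD_mut 1 alone these 2 were -1.87 and -0.36, and without NICD_mut 2 alone Col9a1 was 1.55. The sign of Col9a1 also depended on the method with all 5 libraries. It was -0.11 by limma-voom, -0.02 by limma on log2(TPM + 0.1) and 0.03 with the replicate block, and did not pass in any of them.

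With each library left out in turn, collagens higher ranged from 10 to 29 and lower from 3 to 7. Fibrillar collagens higher ranged from 3 to 9 and lower stayed at 2. Fibril-associated collagens higher ranged from 1 to 8 and lower from 0 to 2. Other collagens higher ranged from 6 to 12 and lower from 1 to 3. For pathway genes, whose alternatives were chosen after seeing the data, those higher ranged from 19 to 38 and lower stayed at 0. The cause of these shifts was not tested.

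With replicate number as a block, 16 collagens were higher and 3 lower. Calls were lost for Col5a1, Col6a1, Col6a4, Col9a2 and Col14a1 and gained for Col1a2, Col8a2 and Col22a1. The shares of all genes called with this block are not given here, so these counts cannot be set against all genes. Across genes, which are not independent replicates, deviations from the group mean correlated at 0.33 for both libraries numbered 1 and 0.16 for those numbered 2. NICD_mut 2 correlated at 0.21 with NICD_wt 3. With 2 libraries the NICD_mut deviations mirror each other, so each value for NICD_mut 2 is that for NICD_mut 1 with its sign turned. The values for NICD_mut 2 are thus no separate information on pairing, and the labels do not tie the numbers to litters. On the TPM scale the median of all genes shifted by 0.11 (pseudocount 1) or 0.12 (pseudocount 0.1), and 60.7% and 60.4% of called genes were higher, against 48.1% of counts-based calls.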
